A study of Mus musculus with 12 samples.

Results

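The liver disposes of ammonia along 2 routes, and the 10 genes described here encode enzymes and a transporter of both. They were taken by symbol from a table of 12284 named genes, and all 10 were measured: Cps1, Otc, Ass1, Asl, Arg1 and Nags of the urea cycle, and Gls2, Glul, Oat and Rhbg of glutamine, ornithine and ammonium handling. The double knockout livers (DKO, 6 libraries) came from Acly f/f; Acss2 f/f mice injected with AAV8-TBG-Cre, an adeno-associated virus whose TBG promoter directs Cre recombinase to hepatocytes, so cells of other types keep both genes. The controls (WT, 6 libraries) carried the same floxed alleles and received AAV8-TBG-GFP. Injection was at 6 to 8 weeks of age, and a Western diet (Teklad TD.88137) began 1 week later in both groups and lasted 6 weeks. The labels do not state the sex of the mice or whether each library is 1 mouse, so a p-value measures the spread between libraries, which may in part be technical. Cre and GFP differ between the groups along with the deletion, and their effects cannot be told apart from it.

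Urea synthesis takes place in hepatocytes near the portal vein. Carbamoyl phosphate is made from ammonia in mitochondria by CPS1, which needs the activator that NAGS makes, and OTC, ASS1, ASL and ARG1 then complete the cycle. Ammonia that escapes this high-capacity route is taken up by a thin layer of hepatocytes around the central vein, where glutamine synthetase (Glul) binds it to glutamate. Wnt signalling through β-catenin maintains that layer. The comparison asked whether either side of this arrangement differed in the DKO liver. In whole-liver RNA, fewer cells of a type and less RNA per cell cannot be told apart.

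The values are log2 CPM, counts relative to library size on a log2 scale. CPM does not account for transcript length, so which of 2 genes has the higher level is not read from it. Taken out of the log, the named genes of a library added up to 905964 to 1087990 CPM, and the number of reads behind them is unknown. Acly, the ATP citrate lyase gene, ranged from 4.42 to 6.60 (median 4.65) log2 CPM in DKO and from 6.56 to 9.35 (median 7.51) in WT. Acss2, the acetyl-CoA synthetase gene, ranged from 3.59 to 5.74 (median 4.01) log2 CPM in DKO and from 6.12 to 7.45 (median 6.35) in WT. Both fell in the limma fit over all genes (log2 fold change -2.51, adjusted p = 0.0165, and -2.18, adjusted p = 0.00571). For both genes the highest library of each group was number 1, and DKO 1 overlapped WT for Acly only. The defining hepatocyte marker Alb, the albumin gene, was abundant in all libraries (mean 15.44 log2 CPM in DKO and 15.67 in WT).

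None of the 10 genes passed the test between DKO and WT. A call meant a Benjamini-Hochberg adjusted p below 0.05 in limma over all 12284 genes, which 1.74% of genes met; 0 of 10 is therefore not a share that sets these genes apart. At an unadjusted limma p below 0.05, 3 of the 10 qualified (Nags, Asl and Otc, named after their values were seen), all lower in DKO, against 16.4% of all genes in either direction and 8.47% in that direction. After quantile normalization Otc (log2 fold change -0.13) and Asl (-0.35) no longer qualified, Nags (-0.25) still did, and Cps1 (0.28, higher in DKO) did as well. Of the 10, 6 were lower and 4 higher in DKO; the median log2 fold change was -0.07, beside 0.004 over all genes. No gene of the 10 was free of overlap between the groups, as 2.17% of all genes were.

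**Figure D1:**
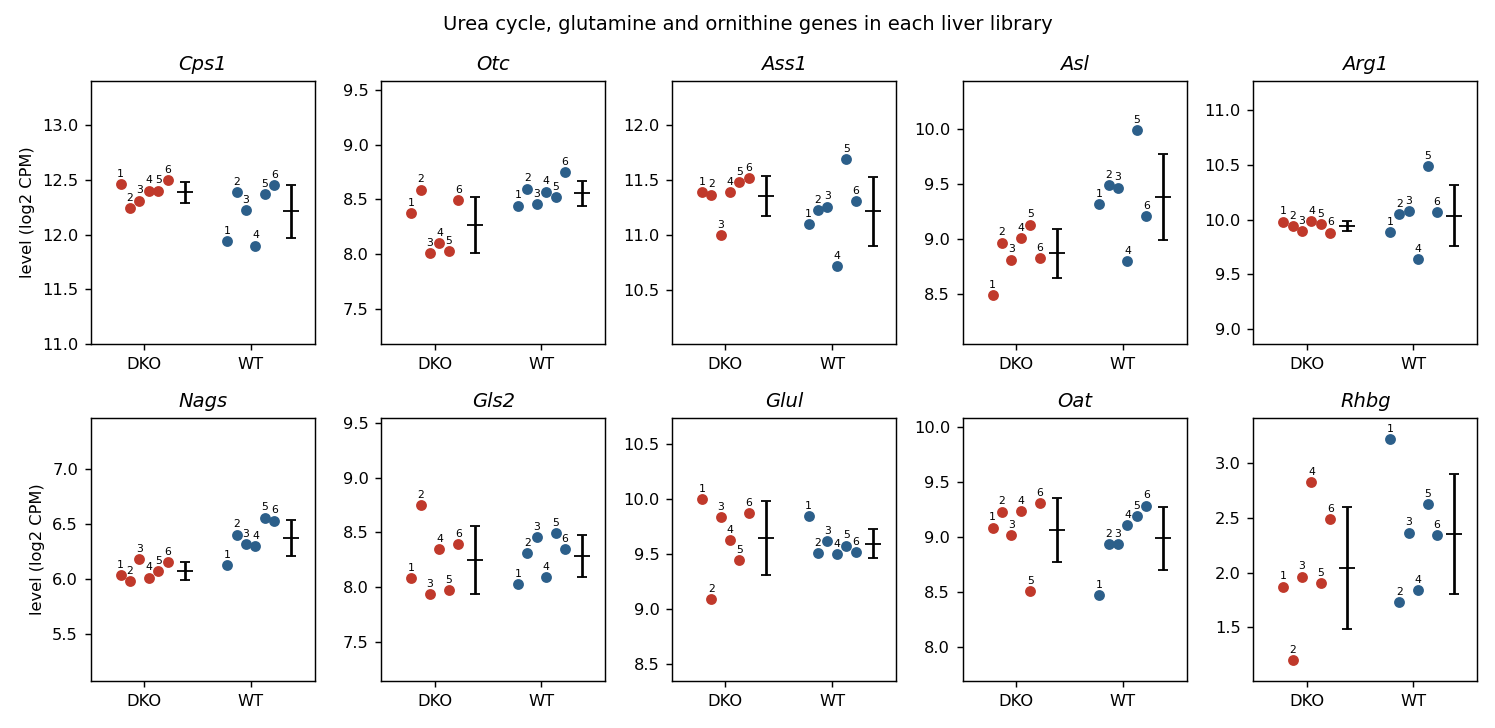
Level of each gene (log2 CPM; each panel spans the same number of log2 units) in the 6 DKO (red) and 6 WT (blue) libraries, numbered by replicate; the black bar is the mean and SD. The groups overlap in every panel, and Arg1 is tight in DKO (9.88 to 9.98) beside WT (9.64 to 10.49).

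Nags, whose product synthesises N-acetylglutamate, the obligate activator of CPS1, came closest to a call. It ranged from 5.98 to 6.18 (median 6.05) log2 CPM in DKO and from 6.13 to 6.56 (median 6.36) in WT. In 6 of 6 DKO libraries it was under the mean of WT, in 5 of 6 WT libraries it exceeded every DKO library, and WT 1 alone reached into the DKO range. The log2 fold change was -0.30 (SE 0.08, 95% interval -0.48 to -0.13), 81.1% of WT, with a limma adjusted p of 0.0806 and a 2-sided exact permutation p of 0.00649. Without WT 1 it was -0.35 with an adjusted p of 0.0284, past the threshold; without any other single library it did not pass (adjusted p up to 0.167). The SD was 0.08 in DKO and 0.16 in WT (n = 6 each), so the libraries of each group were close together for this gene.

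The promoters of Nags and Otc are shown because these were, of the genes with a promoter sequence at hand, the 2 with the smallest p. That of Glul is shown beside them as the pericentral gene. Each runs from 250 bases before to 50 bases after the RefSeq gene start, 5′ to 3′ on the strand of the gene, in build GRCm38.p6, which is another build than the one named for the deposited data. Nags is at chr11:102145263-102145562 on the plus strand, Otc at chrX:10252055-10252354 on the plus strand and Glul at chr1:153899679-153899978 on the plus strand. Capitals mark the letters of a searched motif.
Nags: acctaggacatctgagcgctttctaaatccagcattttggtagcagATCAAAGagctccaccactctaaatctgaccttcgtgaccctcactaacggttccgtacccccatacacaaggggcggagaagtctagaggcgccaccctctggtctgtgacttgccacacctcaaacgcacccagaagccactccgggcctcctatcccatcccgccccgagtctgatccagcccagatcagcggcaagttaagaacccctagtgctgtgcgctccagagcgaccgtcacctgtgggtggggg
Otc: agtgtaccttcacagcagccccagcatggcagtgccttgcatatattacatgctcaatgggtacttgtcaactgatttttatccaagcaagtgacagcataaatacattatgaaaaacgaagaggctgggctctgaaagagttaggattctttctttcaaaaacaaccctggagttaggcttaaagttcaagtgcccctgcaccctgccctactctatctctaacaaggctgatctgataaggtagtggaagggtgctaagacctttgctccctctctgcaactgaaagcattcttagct
Glul: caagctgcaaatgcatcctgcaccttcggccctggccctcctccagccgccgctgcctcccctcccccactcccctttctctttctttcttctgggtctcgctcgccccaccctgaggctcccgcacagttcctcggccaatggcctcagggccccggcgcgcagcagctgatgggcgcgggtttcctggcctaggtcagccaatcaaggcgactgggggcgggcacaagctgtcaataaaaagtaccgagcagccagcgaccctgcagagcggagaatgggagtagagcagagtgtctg

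Of the 10 genes, 5 had a promoter entry (these 3, Ass1 and Oat), and 6 motifs were searched in them on both strands. The TCF/LEF motif ATCAAAG was found once, in Nags, with its first base at -204 from the start; 3.73% of 32851 promoters of the same length hold it. There was no match in the other 4 promoters to it, and none in the 5 to the C/EBP motif TTNNGCAA (10.8% of promoters), the HNF4 motif CAAAGTNCA (1.41%), the HNF1 motif GTTAATNAT (0.801%), the cyclic AMP response element TGACGTCA (1.79%) or the TATA box TATAAA (13.6%). The TCF/LEF and HNF4 motifs share the letters CAAAG and can overlap. GC content was 57.7% for Nags, 44.3% for Otc, 64.3% for Glul, 74.0% for Ass1 and 61.7% for Oat, with a median of 52.7% over the 32851 promoters. A match is a description of letters and not of a binding site.

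Cps1 encodes the mitochondrial synthetase that commits ammonia to the cycle. It ranged from 12.24 to 12.50 (median 12.40) log2 CPM in DKO and from 11.90 to 12.45 (median 12.30) in WT. In 6 of 6 DKO libraries it was over the WT mean, and WT 1 and WT 4 were the low ones. Cps1 had a log2 fold change of 0.17 (SE 0.12, 95% interval -0.08 to 0.43; limma adjusted p = 0.513, exact permutation p = 0.154), and 0.11 without WT 4, 0.12 without WT 1 and 0.28 after quantile normalization.

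Otc, which joins carbamoyl phosphate to ornithine in mitochondria, ranged from 8.01 to 8.59 (median 8.24) log2 CPM in DKO and from 8.44 to 8.75 (median 8.55) in WT. The DKO libraries spread into a low set of DKO 3, DKO 4 and DKO 5 (8.01, 8.10 and 8.03), DKO 1 just under the WT range (8.38), and DKO 2 and DKO 6, which lay within it (8.59 and 8.50). Otc had a log2 fold change of -0.29 (SE 0.11, 95% interval -0.52 to -0.06; limma adjusted p = 0.193, exact permutation p = 0.0368), a level of 81.8% of WT. After quantile normalization the log2 fold change was -0.13. Its spread was wider in DKO (SD 0.25) than in WT (SD 0.11); this difference in spread was not tested.

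In the cytosol, Ass1 encodes the synthetase that adds aspartate nitrogen. It ranged from 11.00 to 11.52 (median 11.39) log2 CPM in DKO and from 10.72 to 11.69 (median 11.25) in WT, so the DKO range lay inside the WT range. Its log2 fold change was 0.14 (SE 0.14, 95% interval -0.17 to 0.44; limma adjusted p = 0.694). It was 0.04 without WT 4, 0.23 without WT 5, 0.21 without DKO 3 and 0.27 after quantile normalization. DKO 3 was the low library of its group for Ass1, with the other 5 at 11.37 or above.

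Asl encodes the lyase that splits argininosuccinate into arginine and fumarate, and it had the largest absolute difference of the 10 genes in the fit to all 12 libraries. It ranged from 8.49 to 9.13 (median 8.90) log2 CPM in DKO and from 8.80 to 9.99 (median 9.39) in WT. In DKO all were under the WT mean, and 5 of 6 WT libraries lay above every DKO library, the exception being WT 4. DKO minus WT was -0.51 on the log2 scale (SE 0.17, 95% interval -0.86 to -0.16), 70.3% of WT, with a limma adjusted p of 0.128 and an exact permutation p of 0.0195. Its lowest adjusted p with 1 library left out was 0.0648, without WT 4.

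Arg1, the arginase that releases urea, is also a gene of some macrophages. It ranged from 9.88 to 9.98 (median 9.95) log2 CPM in DKO and from 9.64 to 10.49 (median 10.06) in WT. Its 6 DKO libraries spanned 0.10 log2 units, against 0.86 for the 6 WT libraries, from WT 4 at the bottom to WT 5 at the top. The log2 fold change was -0.09 (SE 0.11, 95% interval -0.34 to 0.15; limma adjusted p = 0.735), and it was 0.04 after quantile normalization, the other sign. It was -0.17 without WT 4 and -0.003 without WT 5.

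**Figure D2:**
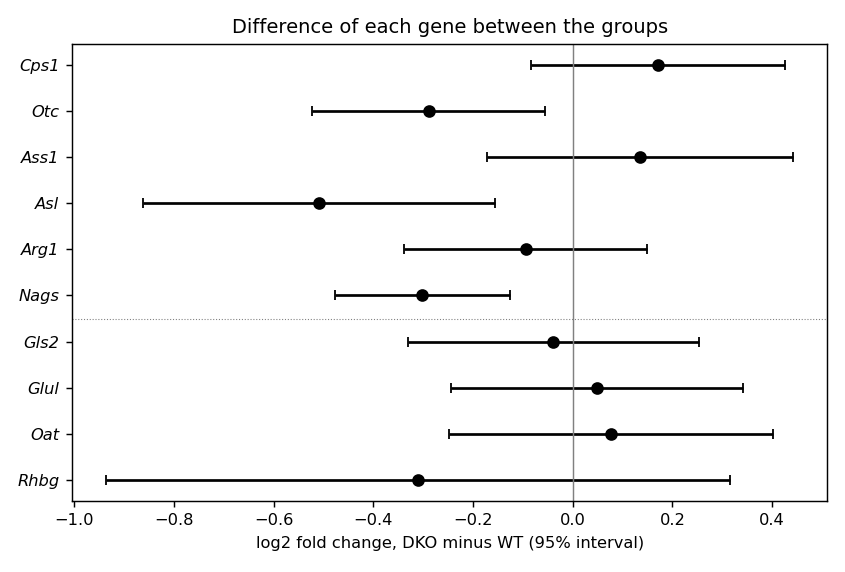
Log2 fold change of each gene, DKO minus WT, with its 95% interval from limma; the dotted line separates the 6 urea cycle genes (above) from the other 4. The intervals of Otc, Asl and Nags lie below 0 before adjustment over all genes, and the other 7 include 0.

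On the side of glutamine, Glul showed no difference that passed the test. Glutamine synthetase is found in the hepatocytes next to the central vein and also in many other cell types of the body. Glul ranged from 9.09 to 9.998 (median 9.73) log2 CPM in DKO and from 9.50 to 9.85 (median 9.55) in WT. DKO 2 was the lowest of all 12 libraries and DKO 1 the highest, so DKO values lay on both sides of the WT range. DKO minus WT was 0.05 on the log2 scale (SE 0.14, 95% interval -0.24 to 0.34; limma adjusted p = 0.903), which is 84.4% to 127% of WT. With 1 library left out it lay between -0.02 (without DKO 1) and 0.16 (without DKO 2), and it was 0.165 after quantile normalization.

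Rhbg encodes an ammonium transporter of the cell membrane of pericentral hepatocytes and was the gene with the widest interval. It ranged from 1.21 to 2.82 (median 1.93) log2 CPM in DKO and from 1.73 to 3.22 (median 2.35) in WT. The ranges overlap over most of their width, with WT 1 the highest library and DKO 2 the lowest. The log2 fold change was -0.31 (SE 0.29, 95% interval -0.94 to 0.32; limma adjusted p = 0.656), so at this low level the interval allows anything from 52.3% to 124% of WT. It was -0.14 without WT 1, -0.14 without DKO 2, -0.47 without DKO 4 and -0.07 with array weights.

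Oat, the aminotransferase that turns ornithine towards glutamate and lies in the pericentral zone, ranged from 8.51 to 9.31 (median 9.16) log2 CPM in DKO and from 8.47 to 9.29 (median 9.02) in WT. Each group held 1 low library, DKO 5 at 8.51 and WT 1 at 8.47, with all others at 8.94 or above. Its log2 fold change was 0.08 (SE 0.15, 95% interval -0.25 to 0.40; limma adjusted p = 0.855) and lay between -0.03 (without WT 1) and 0.19 (without DKO 5) with 1 library left out. With array weights it was 0.002, and after quantile normalization 0.165.

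Gls2 encodes the liver-type glutaminase, which frees ammonia from glutamine in periportal mitochondria. It ranged from 7.94 to 8.75 (median 8.22) log2 CPM in DKO and from 8.03 to 8.49 (median 8.33) in WT. The DKO range enclosed the WT range, with DKO 2 on top and DKO 3 and DKO 5 below every WT library. The log2 fold change of Gls2 was -0.04 (SE 0.14, 95% interval -0.33 to 0.25; limma adjusted p = 0.924); it was 0.10 after quantile normalization, and with 1 library left out it lay between -0.14 (without DKO 2) and 0.02 (without DKO 3); it was also above 0 without DKO 5 (0.02) and without WT 5 (0.002).

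Set against the urea cycle within each library, the pericentral genes kept overlapping ranges. The mean of the 6 urea cycle genes was 9.48 ± 0.07 log2 CPM in DKO (range 9.37 to 9.56) and 9.63 ± 0.21 in WT (range 9.32 to 9.94; SD, n = 6 each). Glul minus that mean was 0.16 ± 0.36 log2 units in DKO and -0.04 ± 0.27 in WT (SD, n = 6 each), a difference of 0.20. Most of this lay in the urea cycle mean, which differed by -0.15 (DKO minus WT), while Glul differed by 0.05. Of the 6 genes in that mean, 4 were lower in DKO and 2 higher. Oat minus that mean was -0.42 ± 0.29 in DKO and -0.64 ± 0.28 in WT, and Rhbg minus that mean was -7.44 ± 0.56 in DKO and -7.28 ± 0.56 in WT. Periportal Gls2 minus the same mean was -1.23 ± 0.28 in DKO and -1.34 ± 0.11 in WT. Transcript length enters each of these values, so they are read only between groups for the same gene, and they carry no test.

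**Figure D3:**
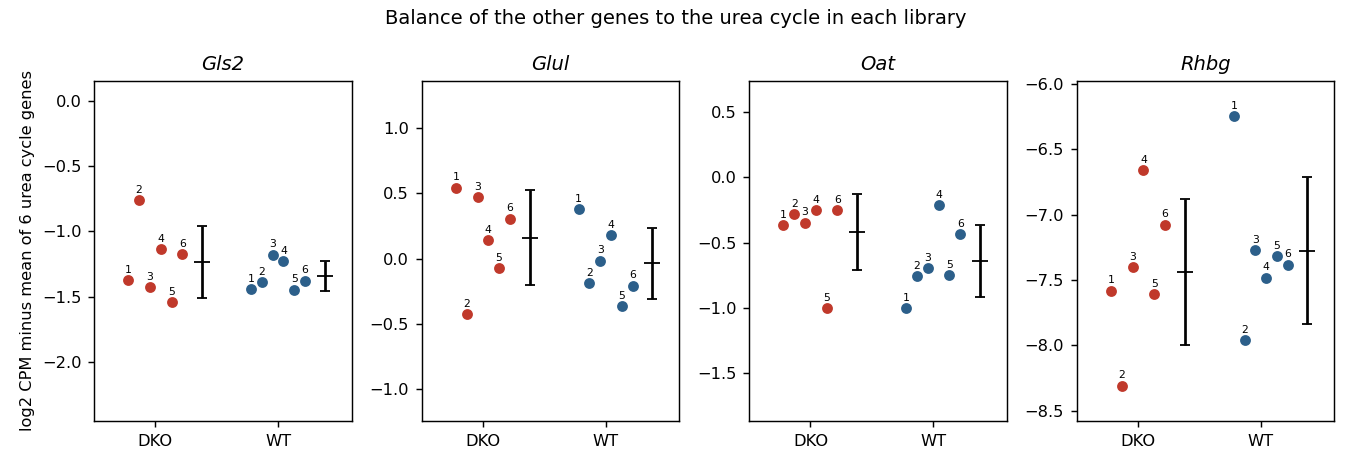
Level of Gls2, Glul, Oat and Rhbg minus the mean level of the 6 urea cycle genes in the same library (log2 units), for 6 DKO (red) and 6 WT (blue) libraries numbered by replicate, with mean and SD as black bars. For Glul the means are 0.16 in DKO and -0.04 in WT, and the points of the groups overlap in all 4 panels.

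None of the 45 pairs among the 10 genes passed a test of association within groups after adjustment over the pairs. With group means removed, Pearson r over the 12 libraries was 0.86 for Ass1 with Arg1 (Spearman rho 0.60), 0.81 for Asl with Arg1 (rho 0.54) and 0.74 for Ass1 with Asl (rho 0.49). Permutation p within groups was 0.00466, 0.0246 and 0.0244 for r and 0.0616, 0.0995 and 0.129 for rho. Adjusted over the 45 pairs, the permutation p was 0.21, 0.211 and 0.211 for r and 0.467, 0.497 and 0.552 for rho. Without WT 4 and WT 5, the 2 libraries farthest from the median on the x axis, r was 0.42, 0.09 and 0.14, so the size of r rested on them. Within the 6 DKO libraries alone r was 0.28, 0.03 and 0.18, and within the 6 WT libraries 0.99, 0.95 and 0.93.

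For Cps1 with its activator gene Nags, r was 0.75 and rho 0.78 (permutation p = 0.0247 for r and 0.0156 for rho). The pair did not pass after adjustment (adjusted permutation p = 0.211 and 0.39). The value was 0.51 without WT 1 and WT 4. Glul had r = 0.58 with Rhbg (rho = 0.58; permutation p = 0.0581 for r and 0.065 for rho, adjusted p = 0.251 and 0.467), its strongest positive relation among the 10 genes, and 0.56 without DKO 1 and DKO 2. With Gls2, which runs the opposite reaction in the other zone, Glul had r = -0.56 (rho = -0.16; permutation p = 0.132 for r and 0.657 for rho, adjusted p = 0.423 and 0.955), and r was -0.03 without DKO 2 and DKO 3. All libraries share the authors' scaling, which can move genes of a library together.

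**Figure D4:**
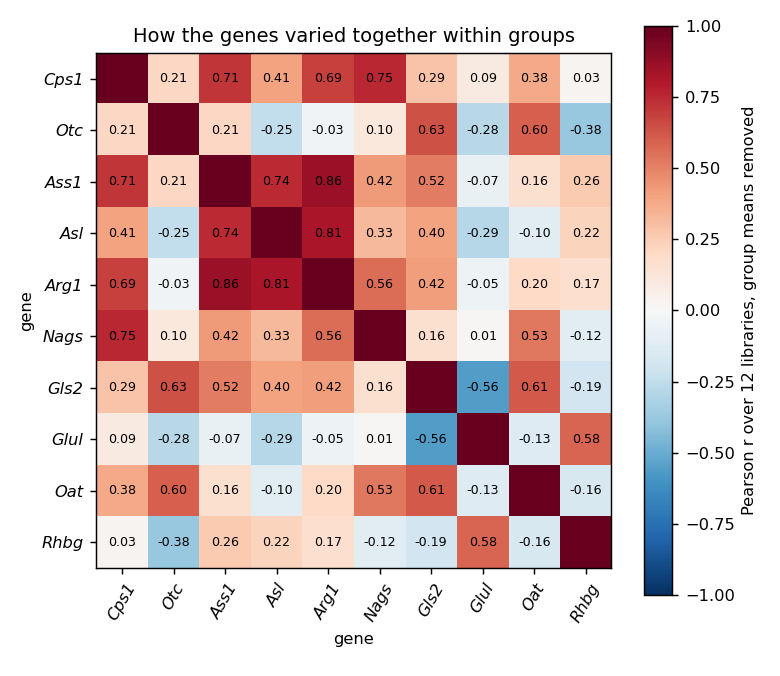
Pearson r between the levels of each pair of genes over 12 libraries after removal of group means, from -1 (blue) to 1 (red); the diagonal is each gene with itself. The block of Ass1, Asl and Arg1 reaches 0.74 to 0.86, Glul with Gls2 is at -0.56, and none of the 45 pairs passed after adjustment.

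In a search of 7822 named genes (mean level 3 log2 CPM or more), the 3 with the pattern most like Cps1 by Pearson r across the 12 libraries, group means removed, were Zkscan3 (r = 0.93, rho = 0.94), Mtss1 (0.87, rho = 0.85) and Usp8 (0.87, rho = 0.68). Those most like Glul were Tor1aip2 (r = 0.91, rho = 0.84), Slc23a1 (0.90, rho = 0.78) and Sptlc2 (0.88, rho = 0.83). They were picked for the size of r, which therefore has no test, and none of the 6 passed the test between DKO and WT (limma adjusted p 0.315 or higher).

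None of the carriers and transporters that serve both routes passed the test: of 14 measured genes 0 rose and 0 fell in limma. The median log2 fold change was 0.11, and 1 gene had an unadjusted p below 0.05, beside 16.4% of all genes. That gene was Slc25a13, which encodes citrin, the carrier that supplies aspartate to ASS1 (log2 fold change -0.22, SE 0.08, adjusted p = 0.15). It ranged from 7.63 to 7.98 log2 CPM in DKO and from 7.84 to 8.12 in WT. By their role, after values were seen, 2 more are given: the mitochondrial ornithine carrier Slc25a15 had a difference of 0.20 (log2; SE 0.12, limma adjusted p = 0.428) and the glutamine transporter Slc38a3 one of -0.01 (SE 0.12, adjusted p = 0.988).

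Among 21 enzymes that release or transfer amino nitrogen, 1 fell and 0 rose in limma (1.12% and 0.619% of all genes). At an unadjusted p below 0.05 were 9 of the 21, beside 16.4% of all genes (median log2 fold change -0.10). The gene that fell was Aspg, an asparaginase, with 6.97 to 7.46 (median 7.16) log2 CPM in DKO and 7.48 to 7.69 (median 7.56) in WT. Its groups did not overlap, and its level in DKO was 77.1% of WT (difference -0.37 on the log2 scale, SE 0.08, limma adjusted p = 0.0332). The call held with DKO 6 or WT 1 left out and was lost with any of the other 10 libraries left out (adjusted p up to 0.077). Glud1, the glutamate dehydrogenase that frees ammonia in mitochondria, chosen by role after its value was seen, had a difference of -0.21 (log2; SE 0.11, limma adjusted p = 0.356).

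Of 15 measured genes of proline, ornithine, polyamine and arginine-derived products, 0 were called by limma, with a median log2 fold change of 0.003. At an unadjusted p below 0.05 were 4 of the 15, beside 16.4% of all genes. Prodh2, a hydroxyproline dehydrogenase, was closest: 7.45 to 7.82 log2 CPM in DKO and 7.83 to 8.09 in WT (difference -0.32, SE 0.08, adjusted p = 0.058, and 0.0282 without DKO 6).

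Of 15 other periportal genes, 1 rose and 2 fell (0.619% and 1.12% of all genes), with a median log2 fold change of -0.17. Cdh1, the epithelial cadherin, rose 2.48-fold (5.49 to 6.33 log2 CPM in DKO, 3.64 to 5.54 in WT; adjusted p = 0.021). Fbp1, the fructose bisphosphatase of gluconeogenesis, fell to 73.0% of WT (9.16 to 9.70 log2 CPM in DKO, 9.66 to 9.89 in WT; adjusted p = 0.0437), and Pigr, the receptor that carries IgA to bile, fell to 64.4% (9.18 to 10.10 log2 CPM in DKO, 10.13 to 10.61 in WT; adjusted p = 0.0479). Cdh1 lost its call without DKO 4 or WT 3 (adjusted p up to 0.0538). Fbp1 kept it only without DKO 2 or DKO 6 and Pigr only without DKO 2, DKO 6 or WT 1 (up to 0.0991 and 0.106 otherwise).

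Of 23 other pericentral genes, 0 rose and 3 fell (0.619% and 1.12% of all genes). In DKO 18 of the 23 were lower, beside 49.2% of all genes and 10 of the 15 other periportal genes. An unadjusted limma p below 0.05 was found for 7 of the 23, beside 16.4% of all genes. The median log2 fold change was -0.10, beside 0.004 over all genes. Aldh1a1, a retinal dehydrogenase, fell to 67.8% of WT (8.97 to 9.34 log2 CPM in DKO, 9.40 to 9.82 in WT; adjusted p = 0.012) and kept its call with any 1 library left out. Cyp2c29, a cytochrome P450, fell to 54.4% (8.59 to 9.90 log2 CPM in DKO, 9.90 to 10.41 in WT; adjusted p = 0.0357). Cyp2c29 kept its call only without DKO 2, DKO 6 or WT 1 (adjusted p up to 0.0817 otherwise). The list holds 8 targets of Wnt signalling (Axin2, Lgr5, Tbx3, Rnf43, Znrf3, Sp5, Nkd1 and Notum), set apart after their values were seen. Lower in DKO were 8 of 8, beside 49.2% of all genes, and 0 were called by limma (log2 fold changes -0.53 to -0.05, adjusted p 0.211 to 0.962). The 1 of these at an unadjusted p below 0.05 was Notum (-0.40, SE 0.16, adjusted p = 0.211). The 5 genes of the list that were higher in DKO all lay outside these 8. They were Cyp1a2 (0.46), Cyp2a5 (0.23), Ahr (0.22), Rgn (0.09) and Gulo (0.07). The share of 8 of 8 thus depends on which genes were set apart and is not read as a result about Wnt targets. Of the pericentral genes described above, Glul (0.05) and Oat (0.08) were higher in DKO and Rhbg (-0.31) lower. A change in Wnt signalling was not tested.

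**Figure D5:**
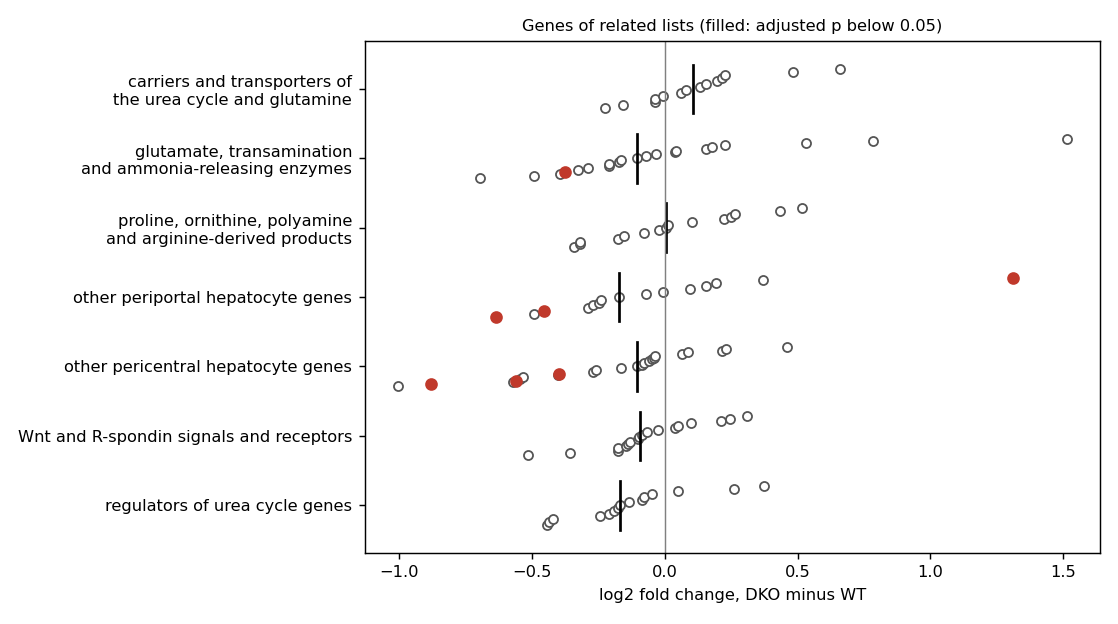
Log2 fold change, DKO minus WT, of each measured gene of 7 related lists; filled points have a limma adjusted p below 0.05, and the black line is the median of the list. Of 114 different genes 1 was called higher (Cdh1, at 1.31) and 6 lower; 7 genes stand in more than 1 list.

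The signals and regulators of both zones held 0 called genes in limma. Of 18 measured Wnt and R-spondin genes, 0 had an unadjusted p below 0.05 (median log2 fold change -0.09), and the one with the smallest p was Fzd7, a Wnt receptor (-0.36, SE 0.20, adjusted p = 0.403). Rspo3, the R-spondin of central vein endothelium, chosen by role after its value was seen, had a difference of 0.04 (log2; SE 0.15, limma adjusted p = 0.928). Of 15 measured regulators of urea cycle genes or enzymes, 12 were lower in DKO, beside 49.2% of all genes (median -0.17). At an unadjusted p below 0.05 were 5 of the 15, beside 16.4% of all genes. Sirt3, which encodes a deacetylase of mitochondrial proteins, was closest (-0.42, SE 0.12, with 5.12 to 5.94 log2 CPM in DKO and 5.84 to 6.21 in WT). Its limma adjusted p was 0.0864, and 0.0399 without DKO 6.

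Markers of hepatocytes and of other cell types are given beside these values. Over all 12284 genes, 6048 were lower and 6236 higher in DKO, and limma called 1.12% lower and 0.619% higher. Of 13 hepatocyte identity genes 12 were lower in DKO and 1 fell (Asgr1, to 78.4% of WT, adjusted p = 0.0452; kept only without DKO 6 or WT 1, up to 0.105 otherwise), with a median log2 fold change of -0.17; their summed level was 72420 to 106600 CPM in DKO and 87920 to 105200 CPM in WT. Of 15 macrophage and monocyte genes 14 were higher and 2 rose (Ccr2, 2.65-fold, adjusted p = 0.0244, and Lyz2, 1.93-fold, adjusted p = 0.0357). An unadjusted limma p below 0.05 was found for 12 of the 15, beside 16.4% of all genes, and the median log2 fold change was 0.557. Their sums were 456.3 to 720.3 CPM in DKO and 373.5 to 618.3 CPM in WT. Ccr2 lost its call without DKO 3, DKO 4, WT 2 or WT 3 (adjusted p up to 0.0604), and Lyz2 kept it only without DKO 3, DKO 6 or WT 1 (up to 0.0865 otherwise). Of 5 cholangiocyte genes 1 rose (Spp1, 1.83-fold, adjusted p = 0.0213; lost without DKO 1 or WT 6, up to 0.056), with sums of 49.2 to 78.8 CPM in DKO and 34.8 to 46.0 CPM in WT.

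All 11 endothelial and 10 of 11 stellate cell genes were higher in DKO, beside 6236 of all 12284 genes. In either list 0 were called by limma, with 6 and 7 at an unadjusted p below 0.05, beside 16.4% of all genes. Cdh5 came closest among the endothelial genes (log2 fold change 0.34, adjusted p = 0.12, and 0.0489 without DKO 6) and Col1a2 among the stellate cell genes (0.72, adjusted p = 0.0787). Endothelial sums were 364.4 to 459.3 CPM in DKO and 343.2 to 389.0 CPM in WT, and stellate sums 355.5 to 506.9 CPM in DKO and 268.4 to 371.1 CPM in WT. Red blood cell genes (5 of 5 higher; Hba-a2 log2 fold change 0.64, adjusted p = 0.241) summed to 569.7 to 1396 CPM in DKO and 342.6 to 726.8 CPM in WT. Among 3 lymphocyte and 2 neutrophil genes 0 were called by limma, with 0 and 1 at an unadjusted p below 0.05; Cd79b (0.56, adjusted p = 0.369) and Mmp9 (1.90, adjusted p = 0.103) were closest. Lymphocyte sums were 2.45 to 5.08 CPM in DKO and 2.58 to 5.17 CPM in WT, and neutrophil sums 3.82 to 7.68 CPM in DKO and 2.06 to 5.36 CPM in WT. At the lowest value of the table in at least 1 library were Hgf of the stellate list and Mmp9. The part of any of these cell types in the values of the 10 genes was not tested.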

How the data were processed

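RNA of mouse liver with poly-A selection was sequenced in 12 libraries, grouped by the genotype label. The authors deposited 1 table of log2 CPM, filtered and normalized between libraries, per its file name; the sources used here give neither the filter nor the added count. Tools named in the submitters' processing notes were limma, edgeR and kallisto 0.46.2, and the builds GRCm39 and mm39. Depth is unknown, so no counting interval is given. Of 12285 rows, 1 without a name was left out; the other 12284 entered a limma 3.58.1 fit under R 4.3.3 (trend, 2-sided, no covariate or filter), with Benjamini-Hochberg adjustment over all. Exact permutation tests took all 924 divisions of the libraries (smallest p 0.00216); pairs of genes were permuted 100000 times within groups. The fit was tested on simulated data. The genes and lists were chosen with earlier results of these data known. Named from each of 7 related and 8 cell type lists were called genes, at most the 3 largest in each direction, or the one with the smallest p; other names are marked. A gene of this rule is not reported here. Not measured genes of a list were not analysed here. Promoters were matched by symbol to RefSeq sequences (GRCm38.p6).

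Alternatives were limma without trend, robust limma, array weights, log2(CPM + 1) and log2(CPM + 5), a minimum mean level of 1 or 3 log2 CPM, median or quantile scaling, the replicate number as a block, and each library left out.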

Additional observations from a re-analysis of the deposited data

Results flagged for a closer look

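Single libraries stood apart within their group of 6 for 3 of the 10 genes. In each, the gap to the nearest other library was a large share of the whole range of the group, beyond what Dixon's test allows at 95%. Ass1 in DKO 3 was 11.00 log2 CPM, below the next DKO library at 11.37. Oat in DKO 5 was 8.51 log2 CPM, below the next DKO library at 9.02. Glul in WT 1 was 9.85 log2 CPM, above the next WT library at 9.62. Of 20 groups examined, chance alone flags about 1 in 20.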

How the results depend on the processing

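None of the 10 genes was called in 9 of 10 other settings, and with 1 library left out the number was 0 to 1; the gene called was Nags. It passed with array weights (1 gene called; -0.313, adjusted p = 0.0393) and without WT 1 (-0.351; other single libraries left out, up to -0.265). Over all genes 214 were called, against 356 with array weights, 138 without the mean trend, 109 after quantile normalization and 92 to 373 with 1 library left out. The sign turned after quantile normalization for Arg1 (0.039) and Gls2 (0.0986). With 1 library left out, Gls2 lay between -0.14 and 0.0224 (0.0224 without DKO 3, 0.0157 without DKO 5, 0.00179 without WT 5), Glul between -0.0222 (without DKO 1) and 0.16, and Oat between -0.027 (without WT 1) and 0.188. The cause of these changes was not tested.

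In the related lists 1 gene was called higher and 6 lower; 1 was lower without the mean trend, 1 after quantile normalization, and with 1 library left out 0 to 1 were higher and 1 to 9 lower. With the replicate number as a block, 397 genes were called in all, 10 in the related lists lower and 0 of the 10 genes (Nags smallest, adjusted p = 0.0671). The numbers are not shown to pair the libraries: deviations of same-numbered libraries correlated above 0.1 for 2 of 6 numbers, and 3 of 6 DKO libraries correlated best with their own number. Calls split into 48 higher and 61 lower after quantile normalization, against 76 and 138. Rhbg has no value under the filter at 3 log2 CPM.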
